A study of Mus musculus with 6 samples.

Results

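The genes described here are 39 genes of the lysosome: 3 lysosomal membrane proteins, 10 glycosidases, 4 sulfatases, 4 genes of lipid breakdown, 1 peptidase, the transcription factors Tfeb and Tfe3, and 15 genes of the vacuolar proton pump, the V-ATPase. They were picked by symbol from a list of known lysosomal genes, and each symbol matched exactly 1 of the 21936 genes in the deposited tables. The list was chosen with earlier results of these data known. All 39 had at least 1 FPKM in every library, and the fewest reads behind any value was 225. FPKM counts reads per unit of gene length and per unit of sequencing depth, so levels can be compared between genes.

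Expression was measured by RNA sequencing of sorted mouse macrophages in 3 libraries labelled CKO, from ALKBH5flox/flox, Lyz2-Cre, APOE-/- mice, and in 3 libraries labelled WT, from ALKBH5flox/flox, APOE-/- mice. Both groups therefore share the loxP-flanked Alkbh5 and the loss of Apoe, and both were kept on a high-fat diet for 4 months. Lyz2-Cre expresses the recombinase from the lysozyme locus in myeloid cells, which include neutrophils as well as macrophages. The labels give neither the animals' age nor the tissue the cells were sorted from. Whether each library stands for its own animal is not stated either, so a p-value here rests on the scatter of 3 libraries per group and may reflect technical scatter alone.

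The lysosome is the acidic compartment in which macrophages digest lipoproteins, dying cells and microbes. The V-ATPase acidifies it: its V1 sector in the cytosol splits ATP and turns a ring in the V0 sector of the membrane, which carries protons inward. Hydrolases that need this acid remove sugars, sulfates, fatty acids and peptides step by step. TFEB and TFE3 are transcription factors that bind a sequence with the core CACGTG in many lysosomal promoters. While nutrients are plentiful, mTORC1 keeps these factors in the cytoplasm, which depends on Rag GTPases and folliculin.

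The libraries held 15422154 to 17802617 assigned reads where labelled CKO and 16660206 to 18418903 where labelled WT. Alkbh5, the targeted gene, read 9.15, 8.61 and 8.50 FPKM in the libraries labelled CKO and 3.77, 3.95 and 3.88 FPKM in those labelled WT, which goes against the label, and reads counted over the whole gene cannot show a missing exon. Apoe, labelled as absent from both groups, averaged 95.02 ± 4.69 FPKM where labelled CKO and 1635 ± 29.3 FPKM where labelled WT (SD, n = 3 each). Every direction given here therefore refers to the labels and not to a checked genotype. All 9 macrophage markers read, among them Adgre1 (F4/80), Cd68 and Csf1r, were above 1 FPKM in every library. Of these 9 genes 5 were called higher and 4 lower where labelled CKO, beside 30.5% and 50.5% of all genes tested. Lyz2, whose locus drives the Cre, averaged 6556 ± 211 FPKM where labelled CKO and 15120 ± 992 FPKM where labelled WT (SD, n = 3 each). Among markers of other cells, 11 of 13 neutrophil genes reached 1 FPKM in a group and their summed level was 273.5 to 282.5 FPKM in the libraries labelled CKO and 677 to 975 FPKM in those labelled WT. Of these 13 genes 8 were called lower and 2 higher where labelled CKO, beside 50.5% and 30.5% of all genes tested. Ly6g and Retnlg, which define neutrophils, were at 0 in all 3 libraries labelled CKO. Summed dendritic cell markers were higher where labelled CKO, at 20.4 to 23.9 FPKM, against 1.90 to 2.34 FPKM where labelled WT, with 1 of 7 genes reaching 1 FPKM and Cd209a at 0 in all 3 libraries labelled CKO. Summed markers of mast cells, basophils and eosinophils were 1.93 to 2.57 FPKM where labelled CKO and 10.3 to 11.9 FPKM where labelled WT, and those of B cells 1.63 to 2.31 FPKM where labelled CKO and 3.97 to 5.97 FPKM where labelled WT. T and NK cell markers summed to 0.349 to 0.677 FPKM where labelled CKO and 0.724 to 1.61 FPKM where labelled WT, and endothelial, fibroblast and epithelial markers to 6.02 to 7.01 FPKM where labelled CKO and 7.18 to 7.75 FPKM where labelled WT. The part of these cells in the results on lysosomal genes was not tested. In bulk RNA, fewer cells of a type and less RNA per cell cannot be told apart.

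Most of the 39 lysosomal genes, which were chosen with earlier results of these data known, were lower in the libraries labelled CKO. In a limma fit over all 9953 genes tested, 36 of the 39 fell and 2 rose at an adjusted p under 0.05, beside a background of 50.5% of all genes lower, 30.5% higher and 81.1% called either way. Their median log2 fold change was -0.64, against -0.14 for all genes tested, and 11 of the 39 fell with a log2 fold change of -1 or lower, which 10.0% of all genes did. All 3 libraries labelled CKO lay below all 3 labelled WT for 36 of the members, beside 51.3% of all genes, and above them for 3, beside 31.2%. No member's groups overlapped, as was the case for 82.5% of all genes. After median-of-ratios scaling, which moved the median of all genes to -0.001, 32 members fell and 3 rose, beside 39.8% of all genes lower, 39.7% higher and 79.5% called. Median-of-ratios scaling ended the calls of Neu1, Idua, Atp6v0b and Atp6v0c, which quantile normalization kept, and brought a call of Tfe3 as higher, which quantile normalization did not. Spread between libraries of a group was small, with a median coefficient of variation of 2.12% where labelled CKO and 2.26% where labelled WT.

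**Figure D1:**
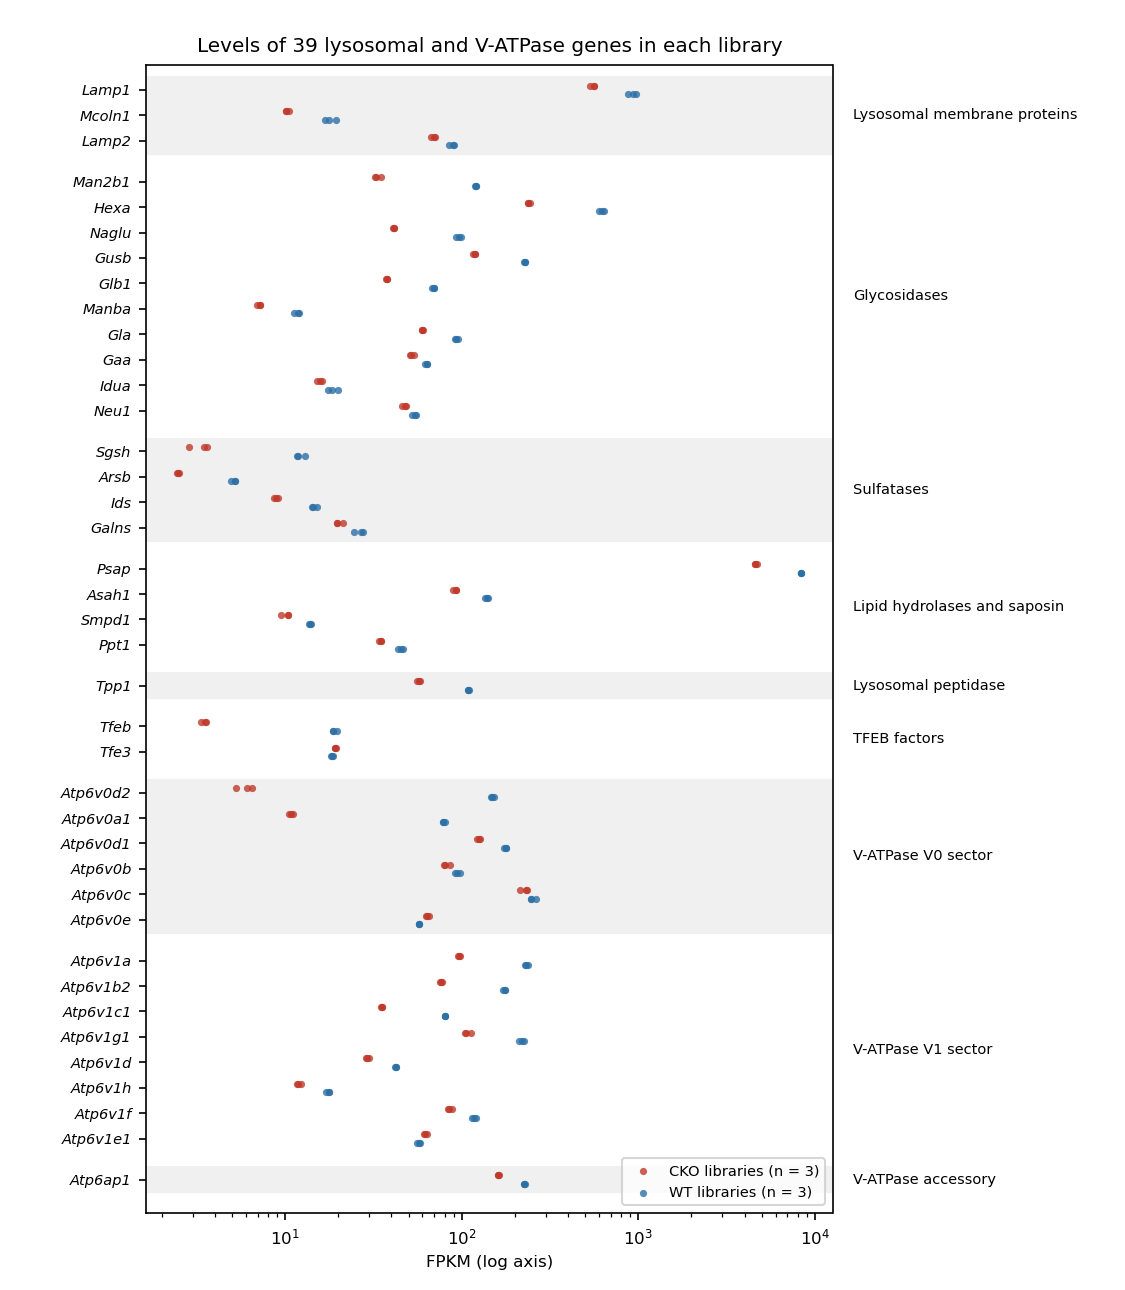
Level of each of the 39 genes in FPKM on a log axis, with 1 point per library, 3 libraries labelled CKO in red above 3 labelled WT in blue, ordered by role. For 36 genes every red point lies left of every blue point, and for Tfe3, Atp6v0e and Atp6v1e1 every red point lies to the right.

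**Figure D2:**
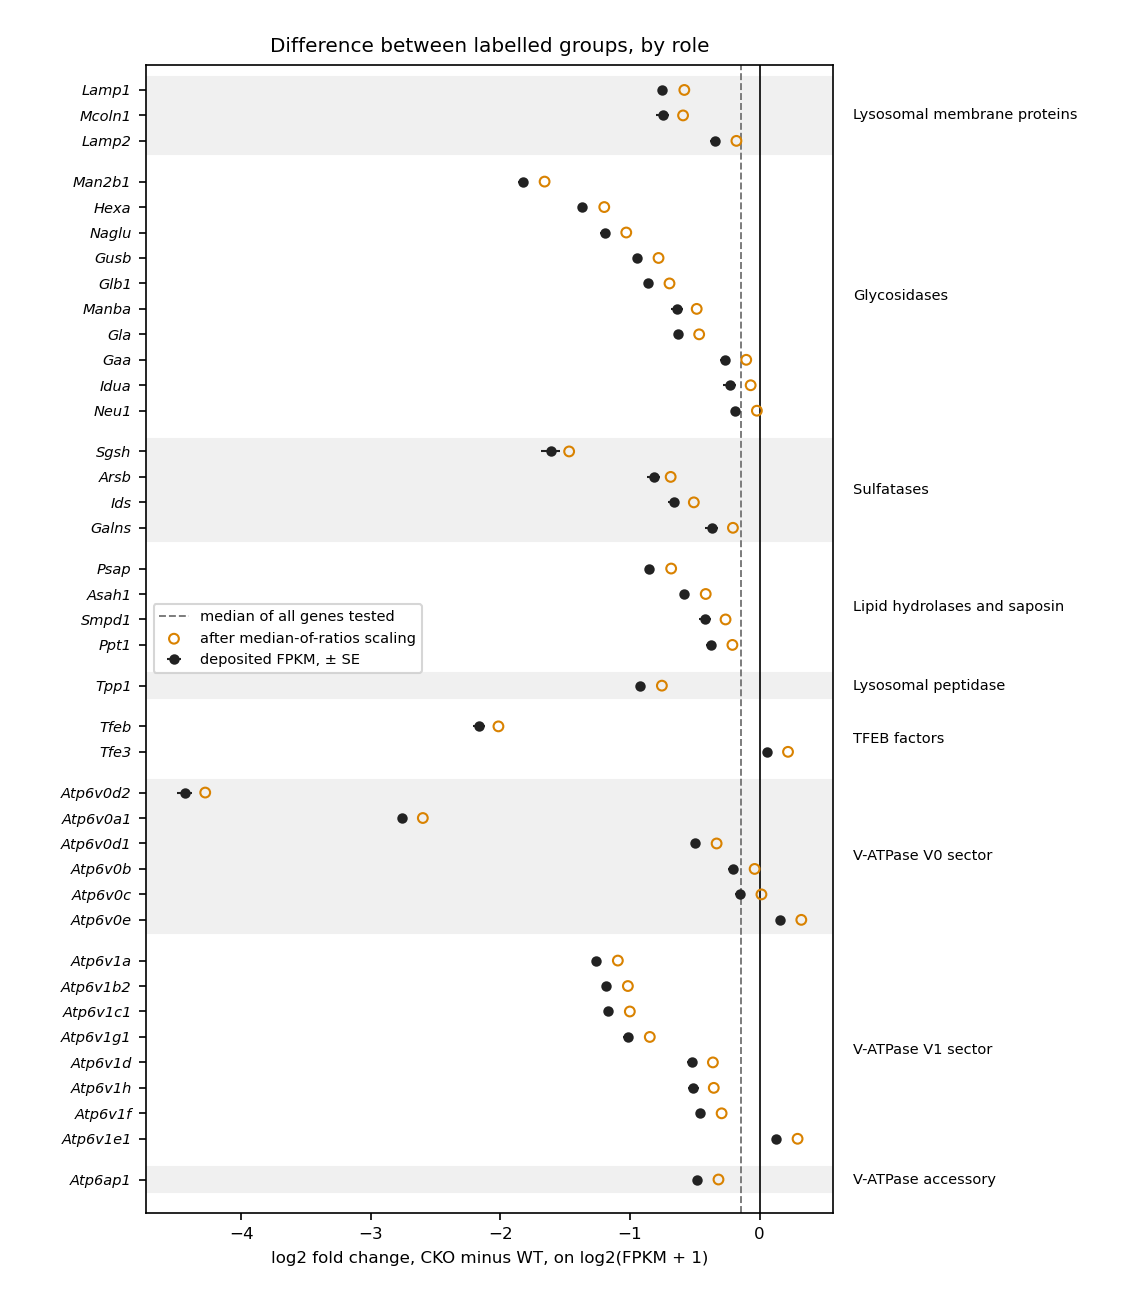
Log2 fold change of each gene, labelled CKO minus labelled WT, on log2(FPKM + 1), as filled points with limma standard errors and, after median-of-ratios scaling, as open points; the dashed line is the median of all genes tested, -0.14. The filled points run between -4.44 for Atp6v0d2 and 0.16 for Atp6v0e.

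**Figure D3:**
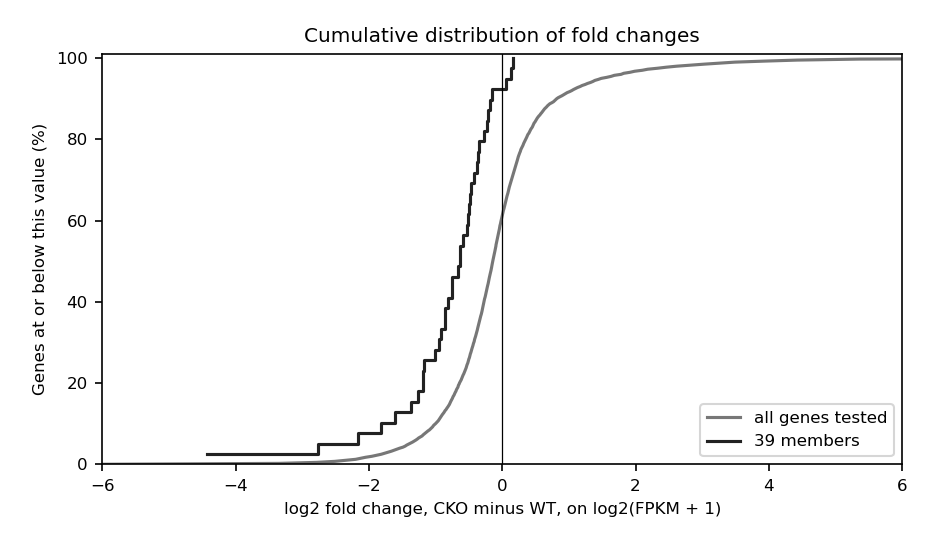
Cumulative share of genes at or below each log2 fold change, labelled CKO minus labelled WT, for the 39 lysosomal genes in black and all 9953 genes tested in grey, drawn between -6 and 6. The black curve lies left of the grey one, with medians of -0.64 and -0.14, and ends at 0.16.

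All 3 lysosomal membrane proteins fell. Lamp1, a heavily glycosylated protein that lines the inner face of the membrane, read 562.5, 531.4 and 560.9 FPKM in the libraries labelled CKO and 879.9, 967.2 and 939.3 FPKM in those labelled WT (chromosome 8, 13159161 to 13175338, mm10). Its log2 fold change was -0.75 (limma adjusted p = 4.88e-09, SE 0.037). Its relative Lamp2, needed for fusion with autophagosomes, fell less, at 69.1 ± 1.76 FPKM where labelled CKO and 88.1 ± 3.33 FPKM where labelled WT, a log2 fold change of -0.35. Mcoln1, the calcium-releasing channel TRPML1, averaged 10.3 ± 0.261 FPKM where labelled CKO and 18.0 ± 1.23 FPKM where labelled WT (SD, n = 3 each). Its log2 fold change on log2(FPKM + 1) was -0.75, as for Lamp1. The mean was 1.75-fold lower for Mcoln1 and 1.68-fold lower for Lamp1, since the added 1 understates the change of low genes.

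Glycosidases fell in all 10 cases, by unequal amounts. Man2b1, the alpha-mannosidase that trims glycoprotein sugars, read 34.8, 32.6 and 32.2 FPKM in the libraries labelled CKO and 119, 121 and 121 FPKM in those labelled WT (chromosome 8, 85083270 to 85098282). The log2 fold change was -1.83 (limma adjusted p = 1.46e-12, SE 0.035), a 3.62-fold lower mean. Hexa, the alpha chain of the hexosaminidase that degrades GM2 ganglioside, was the most abundant glycosidase of the list, with 237, 238 and 245 FPKM where labelled CKO and 603, 639 and 623 FPKM where labelled WT. It fell by 1.37 on the log2 scale (limma adjusted p = 3.11e-12, SE 0.029). Naglu, which removes N-acetylglucosamine from heparan sulfate, fell by 1.20, and Gusb, the beta-glucuronidase, by 0.95.

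Glb1, the beta-galactosidase whose activity is stained as a sign of senescence, averaged 37.6 ± 0.202 FPKM where labelled CKO and 69.2 ± 0.946 FPKM where labelled WT (SD, n = 3 each). Tmppe, a gene on the same strand, lies within Glb1 and could take part of its reads; it averaged 6.53 FPKM where labelled CKO and 9.99 FPKM where labelled WT. Manba, the beta-mannosidase, and Gla, the alpha-galactosidase that degrades globotriaosylceramide, had similar log2 fold changes of -0.64 and -0.63. The smallest differences belonged to Gaa, the acid glucosidase of glycogen, at -0.27, Idua, the iduronidase of dermatan and heparan sulfate, at -0.23, and the sialidase Neu1 at -0.19. Neu1 averaged 47.4 ± 1.36 FPKM where labelled CKO and 54.1 ± 1.61 FPKM where labelled WT (SD, n = 3 each). Its call and that of Idua were lost after median-of-ratios scaling, with limma adjusted p = 0.601 for Neu1 and 0.247 for Idua.

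Among sulfatases the largest decrease was that of Sgsh, which removes N-linked sulfate from heparan sulfate. It read 3.45, 3.61 and 2.86 FPKM in the libraries labelled CKO and 11.8, 12.9 and 11.7 FPKM in those labelled WT (chromosome 11, 119343425 to 119355536). The log2 fold change was -1.61 (limma adjusted p = 1.5e-09, SE 0.070) and the ratio of means 3.67-fold, since a pseudocount of 1 understates the change of low genes. Arsb, a sulfatase of dermatan sulfate, fell by 0.82, and Ids, the iduronate sulfatase, by 0.66. Galns, which acts on keratan sulfate, fell by 0.37. All 4 sulfatases together summed to 34.8 ± 0.737 FPKM where labelled CKO and 58.2 ± 2.70 FPKM where labelled WT (SD, n = 3 each), whereas the 10 glycosidases summed to 652 ± 5.18 FPKM where labelled CKO and 1375 ± 20.5 FPKM where labelled WT.

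Psap, the precursor of the saposins that lift lipids out of membranes for hydrolysis, outweighed every other member. Its level was 4591, 4613 and 4701 FPKM in the libraries labelled CKO and 8370, 8334 and 8390 FPKM in those labelled WT (chromosome 10, 60277627 to 60302597). It fell by 0.85 on the log2 scale (limma adjusted p = 1.95e-11, SE 0.023). Summed over the 39 genes the level was 7350 ± 86.8 FPKM where labelled CKO and 13150 ± 53.2 FPKM where labelled WT (SD, n = 3 each), so that Psap alone made up most of either sum. Acid ceramidase, Asah1, averaged 92.0 ± 1.85 FPKM where labelled CKO and 138 ± 2.59 FPKM where labelled WT. Acid sphingomyelinase, Smpd1, and the thioesterase Ppt1, which strips palmitate from proteins, fell by 0.42 and 0.37. Ppt1 overlaps the abundant Cap1 on the opposite strand by 129 bases at its end. Reads there could be shared unless they were counted by strand. The same holds for other members, as 10 of the 39 overlap another listed gene. Idua overlaps Dgkq by 9342 bases, and Dgkq averaged 2.37 FPKM where labelled CKO and 3.57 FPKM where labelled WT. Sgsh overlaps Card14 by 1951 bases, and Card14 averaged 0.0302 FPKM where labelled CKO and 1.65 FPKM where labelled WT. Tpp1, a peptidase that cuts tripeptides from protein ends, averaged 57.1 ± 1.01 FPKM where labelled CKO and 109 ± 0.745 FPKM where labelled WT, a log2 fold change of -0.92.

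In the V0 sector 5 of 6 genes fell and 1 rose, and the sector held the largest differences of the whole list. Atp6v0d2 encodes an isoform of subunit d, which joins the proton ring to the rotor, and in mice it is known from osteoclasts and macrophages. It read 5.29, 6.52 and 6.08 FPKM in the libraries labelled CKO and 146, 149 and 153 FPKM in those labelled WT (chromosome 4, 19876841 to 19922605). The 2 groups were far apart, with a 25.0-fold lower mean, a log2 fold change of -4.44 (SE 0.057) and a limma adjusted p of 6.64e-14. Only 4 of all genes tested had a lower fold change. Its widely expressed paralogue Atp6v0d1 read 122, 125 and 127 FPKM where labelled CKO and 174, 178 and 179 FPKM where labelled WT, a log2 fold change of -0.50 (limma adjusted p = 1.43e-08, SE 0.028).

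Because a share within a library does not depend on how the library was scaled, the paralogues of each subunit were also set against each other. Atp6v0d2 made up 4.14, 4.96 and 4.56% of the summed FPKM of subunit d in the libraries labelled CKO and 45.6, 45.5 and 46.2% in those labelled WT. The sum itself was 131 ± 2.98 FPKM where labelled CKO and 326 ± 5.77 FPKM where labelled WT (SD, n = 3 each). Subunit d thus came nearly all from Atp6v0d1 in the libraries labelled CKO and from both genes in those labelled WT.

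Subunit a, the part of V0 along which protons leave and enter the ring, also differed in its paralogues. Atp6v0a1 read 10.80, 10.58 and 11.03 FPKM in the libraries labelled CKO and 78.1, 80.1 and 78.7 FPKM in those labelled WT (chromosome 11, 101009452 to 101063719), a log2 fold change of -2.76 (limma adjusted p = 4.16e-14, SE 0.034). Atp6v0a2, which is known from the Golgi and endosomes, went the other way, with 15.2, 15.1 and 14.1 FPKM where labelled CKO and 8.95, 8.63 and 8.94 FPKM where labelled WT. It rose by 0.69 on the log2 scale (limma adjusted p = 5.42e-08, SE 0.044). Tcirg1, which encodes the isoform of lysosomes and of the bone-resorbing membrane of osteoclasts, was the main paralogue in both groups. It averaged 187 ± 4.57 FPKM where labelled CKO and 247 ± 15.9 FPKM where labelled WT (SD, n = 3 each) and fell by 0.40. Tcirg1 accounted for 87.9 ± 0.396% of subunit a RNA where labelled CKO and 73.7 ± 1.44% where labelled WT (SD, n = 3 each). Atp6v0a1 held 5.09 ± 0.00898% where labelled CKO and 23.7 ± 1.37% where labelled WT, and Atp6v0a2 6.99 ± 0.401% where labelled CKO and 2.65 ± 0.0712% where labelled WT.

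No read of the kidney paralogue Atp6v0a4 was listed in any library, which allows up to 0.0391 FPKM at 3 reads, a limit that covers counting error only. The remaining families had a predominant gene each: Atp6v0e, Atp6v1b2, Atp6v1c1, Atp6v1e1 and Atp6v1g1 made up at least 99.1% of their family's FPKM in every library. Atp6v1e2 and Atp6v1g3 also had no reads, Atp6v1b1, Atp6v1c2 and Atp6v0e2 stayed under 1 FPKM in every library, and Atp6v1g2 averaged 0.940 ± 0.0313 FPKM where labelled CKO and 1.67 ± 0.232 FPKM where labelled WT (SD, n = 3 each).

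**Figure D4:**
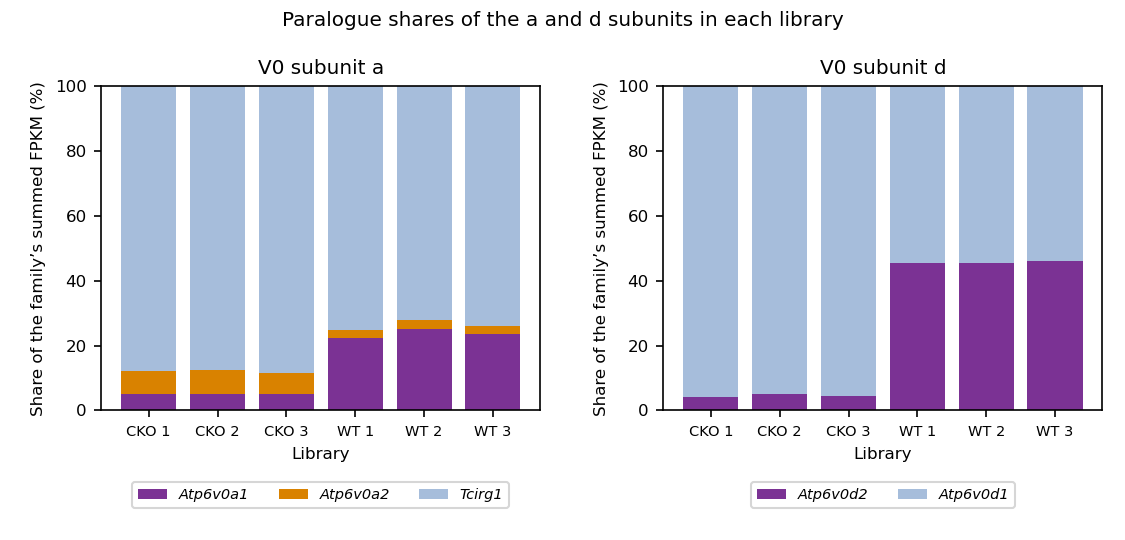
Share of each paralogue in the summed FPKM of V0 subunits a (left) and d (right), as stacked bars in percent, with the 3 libraries labelled CKO left of the 3 labelled WT. Atp6v0d2 holds 4.14 to 4.96% of subunit d where labelled CKO and 45.5 to 46.2% where labelled WT; Atp6v0a4 had no reads and is not drawn.

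The proton ring differed little. Atp6v0c, its main proteolipid, averaged 227 ± 10.3 FPKM where labelled CKO and 253 ± 9.33 FPKM where labelled WT (SD, n = 3 each), with a log2 fold change of -0.15 (limma adjusted p = 0.00312) that became 0.014 after median-of-ratios scaling (adjusted p = 0.745). Processed pseudogenes of Atp6v0c are annotated, so its reads may be split uncertainly. Atp6v0b, another proteolipid of the ring, fell by 0.21, a call also lost after that scaling (limma adjusted p = 0.377). Atp6v0e, a small membrane subunit, rose: it read 63.0, 63.9 and 65.0 FPKM in the libraries labelled CKO and 57.3, 57.2 and 57.5 FPKM in those labelled WT, a log2 fold change of 0.16 (limma adjusted p = 4.43e-04, SE 0.029). Atp6ap1, an accessory protein bound to V0, fell by 0.49, at 161 ± 1.04 FPKM where labelled CKO and 226 ± 1.20 FPKM where labelled WT.

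In the V1 sector 7 of 8 genes fell and 1 rose, by unequal amounts. The subunits of the ATP-splitting head fell most: Atp6v1a read 96.99, 97.27 and 95.42 FPKM in the libraries labelled CKO and 231, 239 and 229 FPKM in those labelled WT, a log2 fold change of -1.26 (limma adjusted p = 4.43e-12, SE 0.028; chromosome 16, 44085402 to 44139705). Its partner Atp6v1b2 read 74.9, 75.9 and 77.6 FPKM where labelled CKO and 175, 177 and 171 FPKM where labelled WT, at -1.18 (limma adjusted p = 8.81e-12, SE 0.028). The ratio of Atp6v1a to Atp6v1b2 within a library was 1.27 ± 0.0344 where labelled CKO and 1.34 ± 0.0159 where labelled WT (SD, n = 3 each), so the pair fell nearly together.

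Atp6v1c1, the subunit that clamps the head to the membrane sector, averaged 35.3 ± 0.230 FPKM where labelled CKO and 80.5 ± 0.302 FPKM where labelled WT (SD, n = 3 each). Its log2 fold change was -1.17, and that of the outer-stalk subunit Atp6v1g1 was -1.02. The rotor subunits Atp6v1d and Atp6v1f and the regulatory subunit Atp6v1h fell less, by 0.52, 0.46 and 0.51. The other outer-stalk subunit, Atp6v1e1, rose slightly, with 61.4, 62.3 and 64.0 FPKM where labelled CKO and 58.1, 57.4 and 56.2 FPKM where labelled WT (log2 fold change 0.13, SE 0.031, limma adjusted p = 0.00297).

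Subunits G and E form the outer stalks as a pair, yet their RNAs were not in a fixed ratio. Atp6v1g1 over Atp6v1e1 was 1.73, 1.67 and 1.77 in the libraries labelled CKO and 3.78, 3.91 and 3.78 in those labelled WT. For Atp6v1a over Atp6v1e1 the ratio was 1.54 ± 0.0469 where labelled CKO and 4.07 ± 0.0932 where labelled WT (SD, n = 3 each). These within-library ratios do not change with library scaling and did not overlap between groups. The 8 V1 genes summed to 505 ± 9.19 FPKM where labelled CKO and 942 ± 17.6 FPKM where labelled WT, whereas the 6 V0 genes summed in the range of 496 to 526 FPKM where labelled CKO and 804 to 813 FPKM where labelled WT.

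The 2 TFEB factors differed. Tfeb read 3.35, 3.52 and 3.57 FPKM in the libraries labelled CKO and 19.8, 18.6 and 18.8 FPKM in those labelled WT (chromosome 17, 47737030 to 47792419), a log2 fold change of -2.16 (limma adjusted p = 3.56e-12, SE 0.047) and a 5.48-fold lower mean. Tfe3, by contrast, read 19.2, 19.4 and 19.2 FPKM where labelled CKO and 18.8, 18.5 and 18.2 FPKM where labelled WT. Its log2 fold change of 0.06 was not called (limma adjusted p = 0.149, SE 0.036), and after median-of-ratios scaling it was called at 0.22 (adjusted p = 1.69e-04). Tfeb over Tfe3 was 0.180 ± 0.00564 where labelled CKO and 1.03 ± 0.0269 where labelled WT (SD, n = 3 each). The other members of the same family of factors were higher: Mitf averaged 21.9 ± 0.786 FPKM where labelled CKO and 15.0 ± 0.413 FPKM where labelled WT, a rise of 0.52 on the log2 scale, and Tfec rose by 0.22 (limma adjusted p = 3.47e-07 and 0.00282). RNA levels do not show where in the cell these factors were.

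Of 21 tested relatives of TFEB and genes of its control by mTORC1, 14 fell and 4 rose, with a median log2 fold change of -0.41. After median-of-ratios scaling 11 fell and 6 rose, with a median of -0.25. Of all genes 50.5% were lower and 30.5% higher, or 39.8% and 39.7% after that scaling. Rragd, a Rag GTPase, read 1.68, 1.58 and 1.89 FPKM in the libraries labelled CKO and 16.7, 16.9 and 16.7 FPKM in those labelled WT, a log2 fold change of -2.71 (limma adjusted p = 1.90e-12, SE 0.054). Its relative Rragc fell by 1.28, and Flcn and Fnip2, which form the folliculin complex that acts on both Rag proteins, by 1.51 and 1.64. Mtor itself averaged 6.66 ± 0.469 FPKM where labelled CKO and 7.17 ± 0.209 FPKM where labelled WT (SD, n = 3 each), without a call (limma adjusted p = 0.136); it was named after its values were seen.

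**Figure D5:**
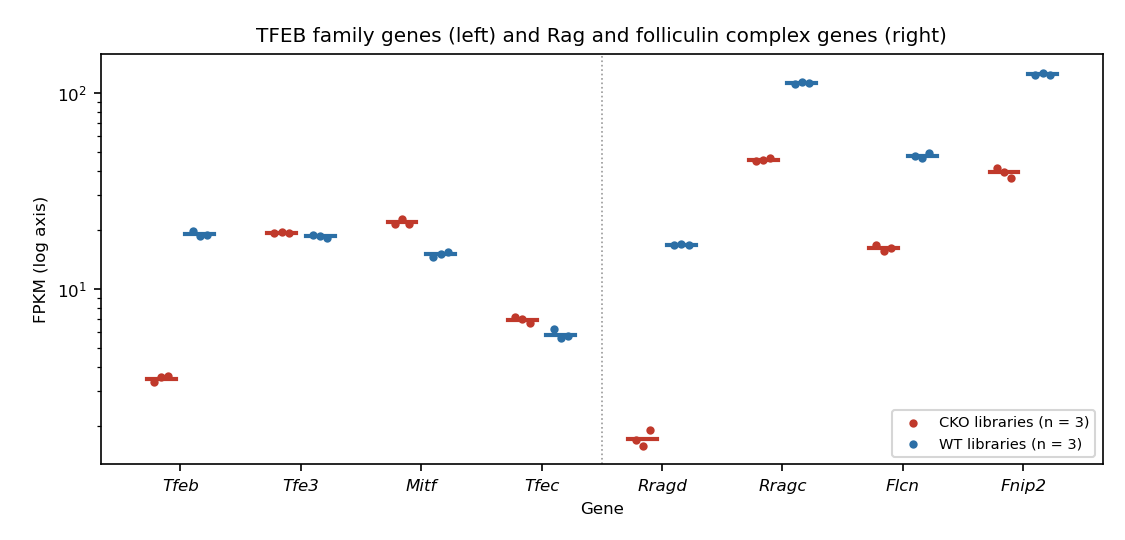
Level in FPKM on a log axis of the 4 TFEB family genes (left of the dotted line) and of 4 Rag and folliculin complex genes (right), with 1 point per library, group means as bars, and libraries labelled CKO in red left of those labelled WT in blue. Tfeb, Rragd, Rragc, Flcn and Fnip2 are lower in all 3 libraries labelled CKO, whereas Tfe3, Mitf and Tfec are higher in all 3, Tfe3 without a call.

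Since TFEB and its relatives bind the core CACGTG, promoter windows were searched for it. RefSeq windows of 300 bases on GRCm38.p6, of which 250 lie before the start of the transcript, matched 32 of the 39 genes with 38 windows, all but Asah1, Galns, Atp6v0d2, Atp6v1b2, Atp6v1c1, Atp6v1g1 and Atp6v1h. The hexamer CACGTG was found in 11 of the 38 windows, 28.9%, against 7.15% of 32851 windows of all genes. Its extension TCACGTGA, which contains it, was found in 5 windows, 13.2%, against 0.97% of all. Both motifs were searched in these letters, and each reads the same on both strands. By gene, 11 of the 32 matched genes held CACGTG, since some genes had more than 1 window. The members were picked as known lysosomal genes, many of whose promoters are known to carry this core. Its excess over all windows therefore comes with the choice of genes and tests nothing. These matches describe the letters in the windows and are not evidence of binding in these cells.

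Windows are shown for 5 genes because their differences range widely: Lamp1, with CACGTG 4 times, and every gene with TCACGTGA except Gla. Each runs 5′ to 3′ along the gene's own strand, with the matches in capitals.
Lamp1, chr8:13158911-13159210, plus strand: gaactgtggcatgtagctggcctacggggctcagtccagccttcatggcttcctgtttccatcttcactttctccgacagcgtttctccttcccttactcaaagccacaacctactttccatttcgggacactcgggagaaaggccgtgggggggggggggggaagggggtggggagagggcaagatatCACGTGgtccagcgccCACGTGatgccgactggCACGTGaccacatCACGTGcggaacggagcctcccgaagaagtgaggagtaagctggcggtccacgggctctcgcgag
Mcoln1, chr8:3500269-3500568, plus strand: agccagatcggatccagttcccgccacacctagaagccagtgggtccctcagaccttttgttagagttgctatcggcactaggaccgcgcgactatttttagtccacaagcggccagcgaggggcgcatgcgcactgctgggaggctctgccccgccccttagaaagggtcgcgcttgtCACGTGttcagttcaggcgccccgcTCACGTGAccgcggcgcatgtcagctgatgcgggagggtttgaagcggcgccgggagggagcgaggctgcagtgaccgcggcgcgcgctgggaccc
Atp6v1a, chr16:44139210-44139509, minus strand: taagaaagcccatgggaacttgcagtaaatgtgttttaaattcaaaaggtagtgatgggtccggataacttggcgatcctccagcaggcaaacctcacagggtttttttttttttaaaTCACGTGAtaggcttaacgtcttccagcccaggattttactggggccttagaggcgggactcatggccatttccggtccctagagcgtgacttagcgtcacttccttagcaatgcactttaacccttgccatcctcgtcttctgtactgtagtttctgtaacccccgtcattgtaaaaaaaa
Atp6v0d1, chr8:105566015-105566314, minus strand: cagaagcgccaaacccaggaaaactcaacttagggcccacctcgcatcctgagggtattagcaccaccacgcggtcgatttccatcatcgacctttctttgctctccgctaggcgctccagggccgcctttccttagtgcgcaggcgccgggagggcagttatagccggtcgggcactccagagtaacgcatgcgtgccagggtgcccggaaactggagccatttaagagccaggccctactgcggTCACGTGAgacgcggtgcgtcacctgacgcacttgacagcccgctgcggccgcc
Atp6v0e, chr17:26676146-26676445, plus strand: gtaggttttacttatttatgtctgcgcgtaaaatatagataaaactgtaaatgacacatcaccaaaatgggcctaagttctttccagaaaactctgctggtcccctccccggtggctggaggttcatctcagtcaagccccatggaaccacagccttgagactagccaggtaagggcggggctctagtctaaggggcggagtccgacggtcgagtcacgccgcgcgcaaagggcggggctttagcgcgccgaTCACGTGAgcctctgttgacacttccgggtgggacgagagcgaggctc

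Of the 11 genes with the core 10 fell and Atp6v0e rose, with the call of Atp6v0b lost after median-of-ratios scaling. Of all 39 members 36 fell and 2 rose, beside 50.5% of all genes lower and 30.5% higher. The share that fell among genes with the core was thus near that of all members. Among those shown, Atp6v1a fell by 1.26, Lamp1 and Mcoln1 by 0.75 each and Atp6v0d1 by 0.50 on the log2 scale, while Atp6v0e rose by 0.16. The core lay next to the RefSeq start in Atp6v0d1 and Atp6v0e. There the first base of CACGTG lies 3 bases before and 3 bases after the start of the transcript, counted as 0. Atp6v0b, Gaa, Gla, Glb1, Naglu and Sgsh held the core as well, Gla 2 times and each time within TCACGTGA. Of the matched genes with a log2 fold change of -1 or lower, Sgsh, Naglu and Atp6v1a held the core. Tfeb, Atp6v0a1, Man2b1 and Hexa did not. Atp6v0d2, Atp6v1b2, Atp6v1c1 and Atp6v1g1 fell as far but had no window. Windows follow RefSeq starts, and those of Atp6v0a1, Atp6v0e and Atp6v1a lay wholly inside the listed gene. For Atp6v0a1 the window began at base 101010148 and the gene at 101009452, and for Atp6v0e at 26676146 and 26663231. The outer start of these genes was thus not searched.

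Other lysosomal genes, from lists that leave out the 39, were lower in most cases too. Of 27 tested other hydrolases and their helpers 19 fell and 7 rose, or 16 and 7 after median-of-ratios scaling, with a median log2 fold change of -0.38. Among those that rose, Acp5 changed most, with 26.4 ± 0.768 FPKM where labelled CKO and 11.75 ± 0.428 FPKM where labelled WT (SD, n = 3 each). Its log2 fold change was 1.11, and it was named after its values were seen. Pla2g15, the lysosomal phospholipase, fell by 2.16 and Galc, the galactosylceramidase, by 2.11. Lipa, the acid lipase that frees cholesterol from lipoproteins, averaged 80.4 ± 1.61 FPKM where labelled CKO and 312 ± 8.26 FPKM where labelled WT (SD, n = 3 each), a log2 fold change of -1.94, and the nuclease Dnase2a fell by 1.61. Among 32 tested other membrane proteins and transporters 25 fell and 4 rose, or 23 and 7 after median-of-ratios scaling, with a median of -0.48. Mcoln3, a relative of the Mcoln1 channel, read 4.81, 4.43 and 4.60 FPKM in the libraries labelled CKO and 57.7, 60.3 and 61.1 FPKM in those labelled WT, at -3.43 (limma adjusted p = 4.37e-14, SE 0.042). Mcoln2, the other relative, went the opposite way, with 76.2, 71.3 and 77.5 FPKM where labelled CKO and 26.2, 25.7 and 25.7 FPKM where labelled WT (a 2.90-fold higher mean, limma adjusted p = 1.2e-11); it was named after its values were seen. The endolysosomal channel Tpcn1 fell by 2.40, and the cysteine importer Mfsd12 and the tetraspanin Cd63 by 1.88 each.

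Of 14 genes that tag hydrolases with mannose 6-phosphate or sort them to lysosomes, 12 fell and 2 rose, with a median log2 fold change of -0.62. After median-of-ratios scaling 11 fell and 2 rose. M6pr, the smaller receptor for the tag, rose, with 212 to 219 FPKM in the libraries labelled CKO and a mean of 97.3 ± 0.436 FPKM in those labelled WT (SD, n = 3; log2 fold change 1.14, SE 0.027, limma adjusted p = 7.22e-12). Cln6, an endoplasmic reticulum protein that helps hydrolases leave it, averaged 6.35 ± 0.126 FPKM where labelled CKO and 19.8 ± 0.466 FPKM where labelled WT (SD, n = 3 each), and the sorting receptor Sort1 fell by 1.34 and the adaptor Gga2 by 1.33. Among 11 tested other V-ATPase subunits and assembly factors 7 fell and 1 rose, Atp6v0a2 being the gene that rose, or 6 and 3 after median-of-ratios scaling. Wdr7, Rogdi and Dmxl1, which belong to the complex that rejoins V1 with V0, fell as well, Wdr7 with 5.31 ± 0.539 FPKM where labelled CKO and 15.7 ± 0.705 FPKM where labelled WT (SD, n = 3 each), Rogdi by 0.96 and Dmxl1 by 0.83 on the log2 scale. For all of these lists the background is the same, 50.5% of genes lower and 30.5% higher. After median-of-ratios scaling it is 39.8% lower and 39.7% higher.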

How the data were processed

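The authors deposited 1 table of FPKM values per library, per the file headers. The submitters' processing notes name, with no role or order, featureCounts 1.6.2, HISAT2 2.1.0, fastp 0.19.3, Cufflinks, StringTie 1.3.4d, GATK 4.0.11.0 and DESeq2 1.22.1, and build mm10. Libraries came from TRIzol-extracted RNA with a stranded mRNA kit, per the labels' protocols; whether reads were counted by strand is not given in the sources used here. In all 6 libraries the FPKM values corresponded to whole reads, within 0.01 reads, for 100% of values. These recovered reads gave the depths and 1 alternative test; the values are scaled to the total of assigned reads.

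Groups and replicate numbers came from the sample titles. A gene was tested if 3 libraries or more had 1 FPKM or more. The test was limma 3.58.1 (R 4.3.3; lmFit, then eBayes with an intensity trend), applied to log2(FPKM + 1) with no covariate beside the group. Adjustment was by Benjamini-Hochberg over all genes tested, with calls at an adjusted p under 0.05. Fold changes are labelled CKO minus labelled WT. The fit was run on simulated data with changes planted in a small part of the genes. Most genes were called in the real data, so that run does not bear on how libraries were scaled. Between libraries, chi-square per degree of freedom of the reads was 2.16 to 3.18 within groups, so none was a copy of another.

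The 39 members and their roles, the lists of other genes and the naming rule were chosen with earlier results of these data known. Named are all members, V-ATPase paralogues, Mitf, Tfec, the targeted genes, and per list up to 4 called genes with the largest change and no overlap between groups. Alternatives were scaling by median of ratios or quantiles, voom on recovered reads, pseudocounts of 0.5 and 0.1, a stricter filter (mean FPKM of 5 or more) or none, a fit without variance trend, a replicate block, and leaving out each library. Tables were made with Python 3.11.15, numpy 2.4.6 and pandas 2.3.3.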

Additional observations from a re-analysis of the deposited data

How the results depend on the processing

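Under 15 alternatives 34 of the 39 members kept direction and call wherever they were tested. The other 5 changed after median-of-ratios scaling: calls were lost for Neu1 (-0.02), Idua (-0.07) and Atp6v0b (-0.04), Atp6v0c turned to 0.014, and Tfe3 was called at 0.22. Of all calls 37.7% were higher, or 49.9% after that scaling and 45.3% after quantile normalization. The members' median of -0.64 became -0.49 after median-of-ratios scaling, -0.67 after quantile normalization, -0.70 and -0.67 with pseudocounts of 0.1 and 0.5, and -0.71 with voom. Leaving out any 1 library gave 36 members lower and 2 higher each time, and the replicate block gave the same counts. Same-numbered libraries did not deviate together (correlations of 0.02, 0.01 and -0.04 for numbers 1 to 3). This check ran over all genes tested, so it cannot exclude a pairing that moves few genes.

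A mean FPKM of at least 5 left 3185 genes lower in place of 5031, and 38 members tested. The same filter left 4 other V-ATPase genes lower in place of 7, and 1 fusion gene higher in place of 2, because fewer genes were tested. Other V-ATPase genes that rose numbered 3 after median-of-ratios scaling and 2 after quantile normalization in place of 1, and other membrane proteins that rose 7 after median-of-ratios scaling in place of 4. With 225 reads or more behind each member's value, depth limits only the paralogues near 0.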

Other observations

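Atp6v0d2 is known in mice from the fusion of osteoclast precursors, so genes of macrophage fusion and osteoclasts were read beside it. Of 6 tested genes 2 fell and 2 rose, beside 50.5% of all genes lower and 30.5% higher. Itgb3, an integrin chain of osteoclasts, read 10.0, 9.36 and 10.2 FPKM in the libraries labelled CKO and 29.4, 29.7 and 25.6 FPKM in those labelled WT, and fell by 1.42 on the log2 scale. Nfatc1, a transcription factor of osteoclasts, averaged 4.72 ± 0.0985 FPKM where labelled CKO and 10.6 ± 0.144 FPKM where labelled WT (SD, n = 3 each) and fell too. Ctsk, the cathepsin of bone resorption, rose by 0.19, with 35.6 ± 1.45 FPKM where labelled CKO and 31.22 ± 1.016 FPKM where labelled WT (SD, n = 3 each), and Car2, a carbonic anhydrase, rose by 0.78 at a level of 1.67 ± 0.204 FPKM where labelled CKO and 0.556 ± 0.139 FPKM where labelled WT. Dcstamp and Ocstamp, membrane proteins needed for fusion, and Oscar and Calcr stayed under 1 FPKM in every library; these 4 were named after their values were seen.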
